A study of Homo sapiens with 21 samples.

Results

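The Notch pathway genes *NOTCH1*, *NOTCH2*, *NOTCH3*, *JAG1*, *DLL1*, *DLL3*, *HES1*, *HEY1*, *HEY2* and *HEYL* were followed through the differentiation of human iPSCs into cardiomyocytes. They were chosen by gene symbol as receptors, ligands and target repressors of the pathway, and every transcript of these 10 genes listed in the 6 deposited tables was taken. A transcript was listed for 7 of the 10 genes, out of 11851 genes in all. These 7 genes have 11 transcripts, which appear in 26 rows of the tables out of 36579. *NOTCH1*, *HEY1* and *HEYL* are in none of the tables, so their levels are not known here.

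All cells derived from PGP1, a human iPSC line in common use. Poly-A RNA of wild-type cells was sequenced as iPSCs, as mesoderm (M), as mesoderm of cardiac fate (CMes), as progenitors of the heart lineage (CP) and as cardiomyocytes (CM). There were 3 libraries at each of the 5 stages, with a separate start of differentiation for each replicate. The same was done for CMs of 2 lines edited to *UBE2B*-/-, with 3 libraries per line. *UBE2B* encodes the ubiquitin-conjugating enzyme of the H2Bub1-deposition complex. The paper reports decreased H2Bub1 in these lines and predicted compensation by the similar enzyme UBE2A. The mesoderm was induced with CHIR99021 and the cardiac fate with the Wnt inhibitor IWP4, and no agent that acts directly on Notch is named in the protocol. CMs were selected with lactate once they beat, and the *UBE2B*-/- libraries were made from beating CMs. More cells were plated for the *UBE2B*-/- lines than for wild type. The paper reports that these lines formed beating CMs less efficiently than wild type. It also reports that only part of their beating cells expressed NKX2.5 and TNNT2.

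Each deposited table compares neighboring stages, or a *UBE2B*-/- line with wild-type CMs, and holds the transcripts that passed the authors' own test in Sleuth. It gives 1 pooled mean per transcript, the average over all its libraries of the natural log of the scaled estimated count plus 0.5, together with variances. It has no value for any single library, so depth, values per library and their overlap are unknown here. The columns with the authors' own fold changes and p-values were not used. Stages 2 apart could still be compared. The pooled mean of M and CMes minus that of iPSC and M leaves the difference between CMes and iPSC, since the M libraries are in both. This holds only for transcripts listed in both tables, and it gave 1551 transcripts for CMes versus iPSC, 2427 for CP versus M and 3743 for CM versus CMes. A transcript was called at an adjusted p of at most 0.05 and a change of at least 1.5-fold, tested with limma and adjusted by Benjamini-Hochberg over these transcripts.

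Notch receptors are single-pass membrane proteins that are cleaved when a ligand of the Delta or Jagged family on a neighboring cell binds them. The freed intracellular part enters the nucleus, joins the DNA-binding protein RBPJ and turns on target genes, chief among them the *HES* and *HEY* genes. Those encode basic helix-loop-helix repressors, and in the heart the pathway is known for roles in the cushions and valves, the trabeculae and the identity of chamber myocardium.

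Promoters of *HES1* and *HEY2* are shown because these are the target genes of the pathway with a listed transcript. They are the 250 bases before the start of each gene in RefSeq on GRCh38.p14, both on the plus strand, at chr3:194135898-194136147 and chr6:125749382-125749631. Capitals mark the letters TGGGAA, the core of the sequence that RBPJ binds, or TTCCCA, the same letters on the other strand.
HES1: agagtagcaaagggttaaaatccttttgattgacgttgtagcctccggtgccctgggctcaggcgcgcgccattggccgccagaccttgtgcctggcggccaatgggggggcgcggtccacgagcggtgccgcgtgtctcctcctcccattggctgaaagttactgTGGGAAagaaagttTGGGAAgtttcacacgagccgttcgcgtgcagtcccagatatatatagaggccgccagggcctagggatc
HEY2: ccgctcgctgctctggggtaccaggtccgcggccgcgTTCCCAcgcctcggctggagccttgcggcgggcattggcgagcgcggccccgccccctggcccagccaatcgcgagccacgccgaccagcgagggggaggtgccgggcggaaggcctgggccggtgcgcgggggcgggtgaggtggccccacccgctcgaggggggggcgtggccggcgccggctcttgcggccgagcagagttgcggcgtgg
In *HES1* the letters occur 2 times, both in the forward direction, and begin 84 and 70 bases before the start. In *HEY2* they occur 1 time in the reverse direction. Either form is present in 20.8% of the 35116 promoters of this length. A match of letters is a description and does not show that RBPJ was bound.

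**Figure D1:**
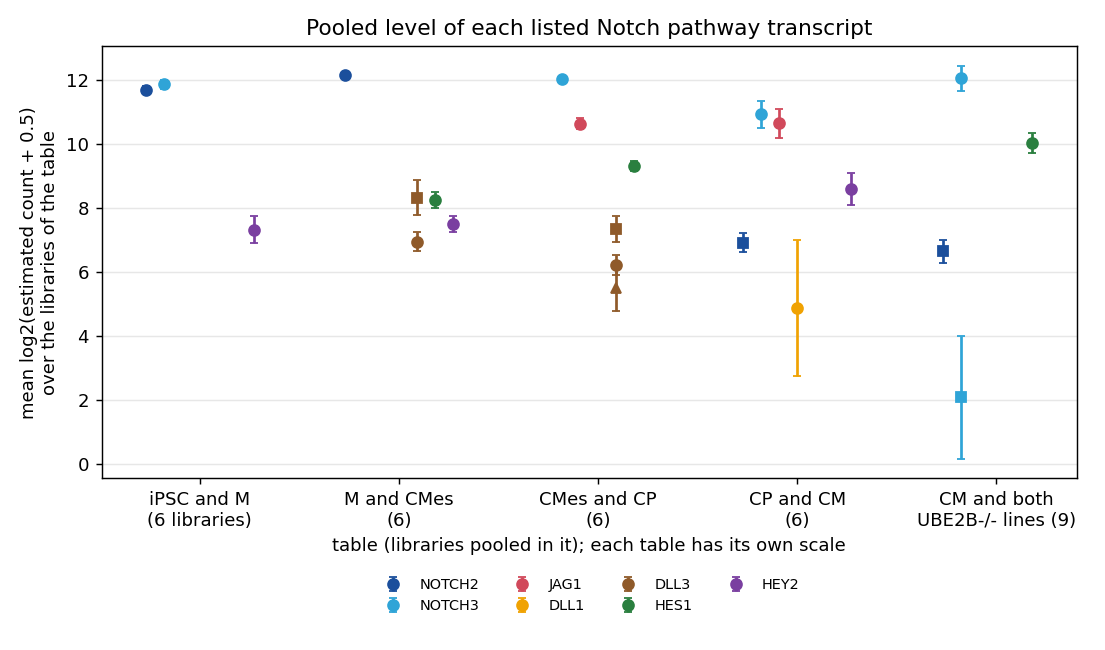
Pooled level of each listed member transcript in each table, as the mean log2(estimated count + 0.5) over the 6 or 9 libraries; bars are the standard deviation between libraries of the same group, and squares and triangles are further transcripts of the same gene. A full-length transcript of *NOTCH2* or *NOTCH3* lies highest in every table, at 1970 to 4578 estimated counts, and *DLL1* lies at 28.9 with the longest bar.

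Among the receptors, *NOTCH3* had the most rows. Its full-length transcript ENST00000263388.7 has 33 exons and lies on chromosome 19 of GRCh38 from 15159038 to 15200995. The pooled mean was 3747 estimated counts over iPSC and M, 4229 over CMes and CP, and 1970 over CP and CM. Each table has its own scale, so these means were compared only after that scale was set. *NOTCH3* fell between CMes and CM, with a log2 difference of -1.85 (standard error 0.20, 95% interval -2.31 to -1.40, limma adjusted p = 3.37e-05, 3 libraries per stage), a 3.61-fold lower level. It is not listed for M and CMes, so neither CMes versus iPSC nor CP versus M can be read for it.

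*NOTCH2*, a receptor with broad expression, moved the other way at an earlier time. The transcript ENST00000256646.7 (34 exons, chromosome 1, 119911553 to 120069662) had pooled means of 3308 estimated counts over iPSC and M and 4578 over M and CMes. Its log2 difference between CMes and iPSC was 0.74 (standard error 0.12, 95% interval 0.48 to 1.01, limma adjusted p = 0.000256), a net rise of 1.67-fold. The standard deviation over iPSC and M was 0.26 on the log2 scale, against 0.12 between libraries of the same stage. Over M and CMes these were 0.65 and 0.11. Steps of that size give the net rise only if the measured mean of M lay below those of iPSC and CMes. Another *NOTCH2* transcript, ENST00000602566.6, is listed for CP and CM at a pooled mean of 120 estimated counts. It has no entry in GENCODE 44, so its structure is not given. *NOTCH2* shares near-identical sequence with the *NOTCH2NL* genes, and the reads of short *NOTCH2* transcripts could be split between them.

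Per kilobase of transcript, *NOTCH3* was above *NOTCH2* over iPSC and M, at 432 against 290 estimated counts. Over CMes and CP, *NOTCH3* had 487 estimated counts per kilobase against 269 for the ligand *JAG1*. Over CP and CM the order was *JAG1* at 271, *NOTCH3* at 227, *HEY2* at 148 and *DLL1* at 7.65. The standard deviation between libraries of a group was 0.46 on the log2 scale for *JAG1* and 0.42 for *NOTCH3* there, so these neighbors in the order differ by less than their spread. These values average CP and CM, which differed by unequal amounts among the genes, so the order may not hold at either stage alone.

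*JAG1* encodes Jagged1, the ligand mutated in Alagille syndrome. Its transcript ENST00000254958.10 (26 exons, chromosome 20, 10637684 to 10673999) had pooled means of 1597 estimated counts over CMes and CP and 1609 over CP and CM. The log2 difference between CM and CMes was 0.37 (standard error 0.22, 95% interval -0.14 to 0.88, limma adjusted p = 0.175), which did not pass the test. The interval allows a level up to 0.88 higher on the log2 scale, so a rise of that size is within the error. Its spread over the libraries of each table was nevertheless wide, with a standard deviation of 1.00 on the log2 scale over CMes and CP and of 1.26 over CP and CM, against 0.17 and 0.46 between libraries of the same stage. CMes and CM therefore had similar measured means while the CP libraries, which both tables hold, stood apart from them. The step was larger between CP and CM, and the measured mean of CM was above that of CMes. This places the measured mean of CP below both.

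*DLL3* encodes a divergent Delta protein that inhibits Notch within the cell in which it is made and is known for its part in somite formation. It had the most listed transcripts, 3 in all. The transcript ENST00000356433.9 (chromosome 19, 39498947 to 39508469) had pooled means of 321 estimated counts over M and CMes and 164 over CMes and CP. It fell by 1.95 on the log2 scale from M to CP (standard error 0.32, limma adjusted p = 0.000214), a 3.87-fold lower level. The transcript ENST00000205143.4 went from a pooled mean of 124 estimated counts to 74.6 in the same tables. From M to CP its log2 difference was -1.47 (standard error 0.32, limma adjusted p = 0.0016). Their 95% intervals, -2.67 to -1.23 and -2.18 to -0.75, overlap, and these transcripts of 1 gene share reads. Both are net differences. Over M and CMes their standard deviations were 1.03 and 0.70 on the log2 scale, against 0.54 and 0.31 between libraries of the same stage. Over CMes and CP they were 2.01 and 1.48, against 0.40 and 0.32. Steps of that size give the net fall only if the measured means of CMes lay above those of M and CP. The third, ENST00000600437.1, is annotated as a retained intron and is listed for CMes and CP only, at 44.9 estimated counts. *DLL1*, a ligand that activates Notch, is listed for CP and CM only (ENST00000366756.4, chromosome 6, 170282206 to 170291078). With 28.9 estimated counts and a standard deviation of 2.12 on the log2 scale between libraries of a stage, it was the least precisely measured member at these stages.

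*HES1* encodes the repressor whose promoter holds the letters TGGGAA in the 2 places shown above. The transcript ENST00000232424.4 (4 exons, chromosome 3, 194136148 to 194138732) had a pooled mean of 309 estimated counts over M and CMes and 635 over CMes and CP. It rose from M to CP with a log2 difference of 2.06 (standard error 0.18, 95% interval 1.65 to 2.47, limma adjusted p = 2.65e-06), a 4.17-fold higher level. Its standard deviation over M and CMes was 0.75 on the log2 scale, against 0.25 between libraries of the same stage. Over CMes and CP these were 0.43 and 0.16. Together with the net rise, these spreads place the measured mean of *HES1* higher at both steps. The *DLL3* transcripts were lower in CP than in M, but their measured means also rose from M to CMes. The genes moved in opposite directions only from CMes to CP.

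*HEY2* encodes a repressor of the ventricular compact myocardium. Its transcript ENST00000368364.4 (5 exons, chromosome 6, 125749632 to 125761269) had pooled means of 160 estimated counts over iPSC and M, 182 over M and CMes and 389 over CP and CM. The log2 difference between CMes and iPSC was 0.18 (standard error 0.27, 95% interval -0.42 to 0.77, limma adjusted p = 0.683), which did not pass the test. Over iPSC and M, however, the standard deviation of *HEY2* was 0.75 on the log2 scale, against 0.42 between libraries of the same stage. Over M and CMes these were 0.59 and 0.25. The small net difference and these spreads place the measured mean of M above those of iPSC and CMes. *HEY2* is absent from the table of CMes and CP, so later stages cannot be joined to the earlier ones. Over CP and CM its standard deviation was 1.38 on the log2 scale over all 6 libraries and 0.50 between libraries of a stage.

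**Figure D2:**
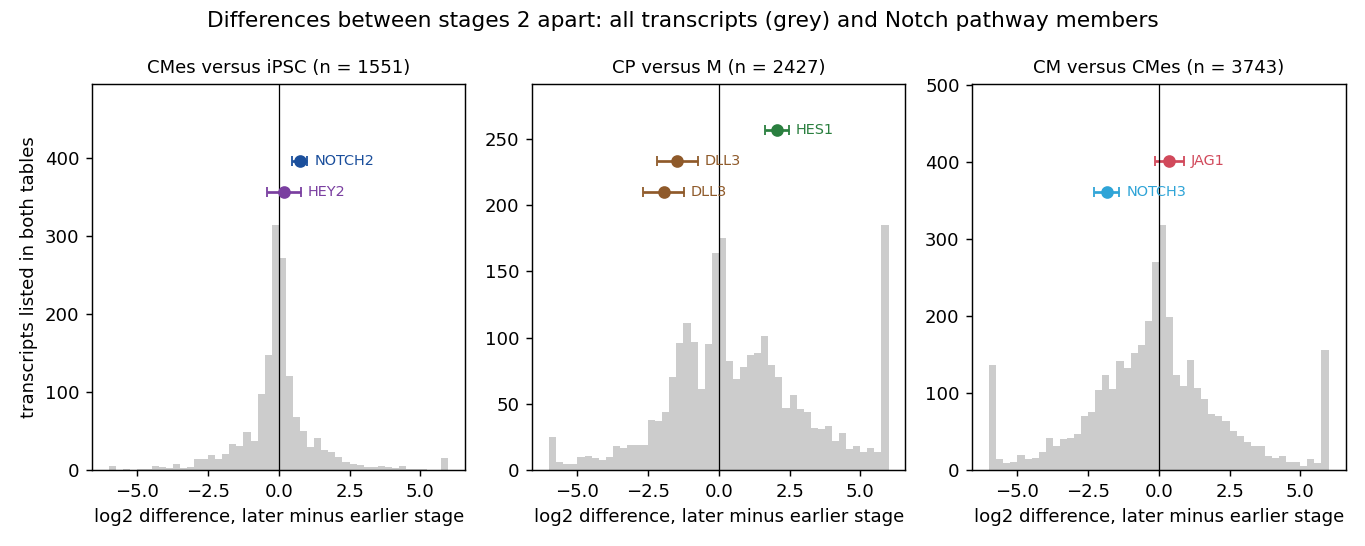
Log2 difference between stages 2 apart for all transcripts listed in both tables (grey histograms, values beyond 6 collected in the outer bars) and for the member transcripts (points with 95% intervals, drawn above the histogram at arbitrary height). *NOTCH2* and *HES1* lie above 0, *NOTCH3* and both *DLL3* transcripts lie below it, and the intervals of *HEY2* and *JAG1* include 0.

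Of the 2 member transcripts with a value for CMes versus iPSC, 1 was called, where 34.9% of all transcripts compared were. All 3 of those for CP versus M were called, against a background of 74.1%. For CM versus CMes 1 of 2 was called, against 64.3%. Nothing about the members can be read from these shares, since the members are few and the background is high, as a transcript had to pass the authors' test in both tables to have a value. The median log2 difference over all transcripts compared was -0.04, 0.36 and -0.09 in the same order. None of the 11 member transcripts is listed in all 4 wild-type tables, so CM versus iPSC has no value for a member, and no genes of like pattern could be named.

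Other genes of the pathway were taken from a list of 58 that holds further ligands, the processing enzymes, the nuclear complex and its modulators. A transcript of 45 of them is listed in some table. For CMes versus iPSC, 6 genes had a value and 1 of 8 transcripts was called, *HES2*, a repressor of the same family, with a log2 difference of -1.48 (standard error 0.40, limma adjusted p = 0.00942). The protease *ADAM10*, which makes the first cut after ligand binding, had log2 differences of 0.12 to 0.48 for its 3 transcripts, none of them called.

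For CP versus M, 1 of 3 transcripts was called. It was *DLK1*, a Delta-like protein that lacks the domain needed to activate Notch, and it rose by 6.34 on the log2 scale (standard error 0.57, limma adjusted p = 2.91e-06). The modulator *DTX1* had a log2 difference of 0.93 (95% interval 0.06 to 1.80) with a limma adjusted p of 0.0503. For CM versus CMes, 10 genes had a value, 1 was called higher and 4 lower. The acetyltransferase *KAT2B*, a coactivator in the nuclear complex, rose by 4.40 (standard error 0.29, limma adjusted p = 2.22e-06). *DLK1* fell by 2.41 on the log2 scale (standard error 0.56, limma adjusted p = 0.00394). The corepressor genes *HDAC1* and *TLE3* were also among those called lower, with log2 differences of -1.74 (standard error 0.23) and -1.88 (standard error 0.22).

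Markers of the stages and of other cell types moved in the same comparisons, and their part in the differences above was not tested. In bulk RNA, fewer cells of a type and less RNA per cell cannot be told apart. For CMes versus iPSC, in which *NOTCH2* rose, few markers had a value. All 3 transcripts of *TBXT* rose, the pluripotency marker *DPPA4* fell by 1.69 on the log2 scale (standard error 0.13), and 3 of 4 smooth muscle and mural transcripts rose, of *PDGFRB* and *RGS5*. The mesenchymal marker *PDGFRA* rose by 4.62 (standard error 0.26) and the endoderm marker *FOXA2* by 10.70 (standard error 0.64), each the only one of its list with a value. The cardiac marker *TTN* had a log2 difference of -0.32 (standard error 0.60) and was not called, and 0 endothelial and 0 neural markers had a value. All 10 transcripts with a value, of 4 of the 8 pluripotency markers, fell from M to CP, as did 2 of 5 of the mesoderm markers, both of *TBXT*, and all 7 transcripts of the cardiac markers *MYL7* and *TTN* rose. No neural marker had a value there. From CMes to CM, all 31 transcripts of 8 of the 9 cardiac markers rose, among them *NKX2-5* by 7.82 on the log2 scale (standard error 0.27). All 11 transcripts with a value, of 5 of the 8 pluripotency markers, fell from CMes to CM, with a median log2 difference of -7.8. The only mesoderm marker with a value there, *EOMES*, fell by 8.06 (standard error 0.33). Of the 6 smooth muscle and mural markers, 3 genes had a value for CP versus M, and all 4 of their transcripts rose. For CM versus CMes, in which *NOTCH3* fell, 2 rose, 1 fell and 2 were not called. Those that rose were *ACTA2*, by 7.99 on the log2 scale (standard error 0.24), and *CNN1*, by 4.18 (standard error 0.20). The one that fell was *PDGFRB*, a receptor of mural and mesenchymal cells, with a log2 difference of -3.15 (standard error 0.28). The 2 not called were both of *RGS5*, with log2 differences of -0.27 and 0.07. The mesenchymal markers had all 5 transcripts higher for CP versus M, and 4 higher and 2 lower of 8 for CM versus CMes. Endoderm markers had all 4 transcripts higher for CP versus M, and 3 higher and 2 lower of 8 for CM versus CMes. Of the 9 endothelial markers, 0 had a value for CP versus M and 1 for CM versus CMes, where it fell. The neural markers had 1 of 2 transcripts lower for CM versus CMes.

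In the CMs of both *UBE2B*-/- lines and wild type, 3 of the 10 genes are listed, among 2436 genes listed for line 1 and 2416 for line 2. For transcripts in both tables the pooled mean and variances are the same, so these come from a single fit of 9 libraries. The pooled columns give no direction, and it is not stated here which group was higher. The targeted gene could not be checked in each library either. *UBE2B* is listed for line 1 through 1 transcript, ENST00000499038.2, at a pooled mean of 79.7 estimated counts with 91.2% of its variation between groups, and is not listed for line 2. *NOTCH3* (ENST00000263388.7) had a pooled mean of 4263 estimated counts over the 9 libraries, with a standard deviation of 1.28 on the log2 scale over all of them and of 0.40 between libraries of a group. Thus 92.6% of its variation between libraries lay between the 3 groups. *HES1* had 1043 estimated counts and standard deviations of 0.54 and 0.31, which places 75.0% of the variation between the groups. The *NOTCH2* transcript ENST00000602566.6 had 99.9 estimated counts and 86.9%. These transcripts are listed for both lines. A second *NOTCH3* transcript, ENST00000597756.1, with 3 exons and 559 bases, is listed for line 1 only, at 3.75 estimated counts with a standard deviation of 1.92 between libraries of a group. Its reads could be shared with the full-length transcript.

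The median share of variation between groups over all listed transcripts was 80.4% in the table of line 1 and 79.8% in that of line 2. *NOTCH3* lay above these medians and *HES1* below them. Being listed already requires a large share, since the lowest was 60.9% in the table of line 1, so no test was made. *JAG1*, *DLL1*, *DLL3* and *HEY2* are listed for neither line, which says that they did not pass the authors' test, not that they were unchanged. Of the other 58 pathway genes, 45 are listed for some comparison, 11 of them for line 1 and 12 for line 2. Of all 11851 genes listed for some comparison, 2436 are listed for line 1 and 2416 for line 2. Nothing is read from these counts or from those of the markers below. The pathway genes listed include *KAT2B*, with 472 estimated counts and 85.3% of the variation between groups, the repressor *HES4*, and for line 1 the feedback inhibitor *NRARP*, with 229 estimated counts and 68.2%. Among the markers, 6 and 7 of the 9 cardiac genes are listed for lines 1 and 2, 3 and 5 of the 7 mesenchymal genes, 1 and 1 of the 6 smooth muscle and mural genes, and 1 and 2 of the 9 endothelial genes. Their part in the spread of *NOTCH3* and *HES1* was not tested.

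**Figure D3:**
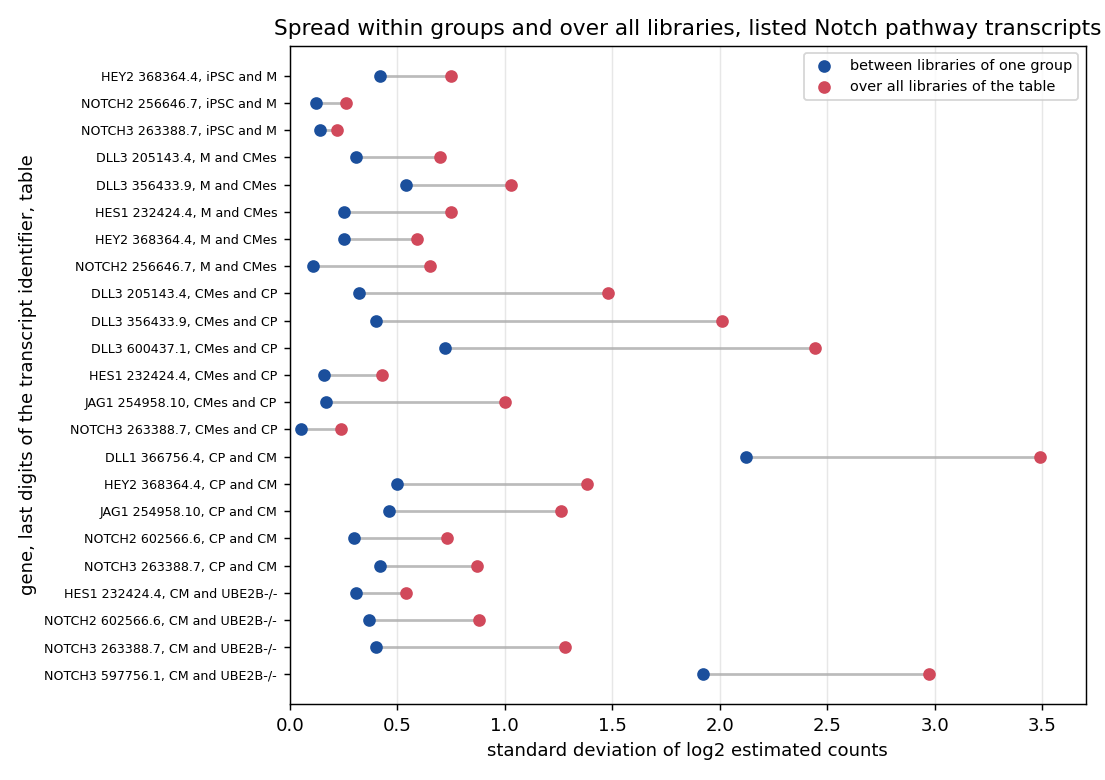
Standard deviation of log2 estimated counts for each listed member transcript, between libraries of one group (blue) and over all 6 or 9 libraries of the table (red). For the 3 *DLL3* transcripts over CMes and CP the blue points lie at 0.32 to 0.72 and the red points at 1.48 to 2.44, and *DLL1* has a wide spread by both measures, at 2.12 and 3.49.

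Replicate precision differed among the members. Over CMes and CP the standard deviation between libraries of a stage was 0.05 on the log2 scale for *NOTCH3*, 0.16 for *HES1* and 0.17 for *JAG1*, below the median of 0.22 for the table, while the 3 *DLL3* transcripts had 0.32 to 0.72, above it. Over CP and CM it was 0.42 for *NOTCH3*, 0.46 for *JAG1* and 0.50 for *HEY2*, above the table's median of 0.34, as was *DLL1* at 2.12, while the *NOTCH2* transcript ENST00000602566.6 was below it at 0.30. The pooled mean of *NOTCH3* was at or above that of 95.5% of the transcripts in the CMes and CP table, and that of *DLL1* was at or above 26.5% of those in the CP and CM table. The 0.05 of *NOTCH3* rests on 3 libraries per stage, and the authors' final variance is higher. With that variance, 79.0% in place of 96.6% of the *NOTCH3* variation over CMes and CP lay between the stages.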

How the data were processed

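The 21 libraries were assigned to 7 groups by their sample labels. After trimming with the FASTX-Toolkit, the authors ran Kallisto on hg38, scaled the estimated counts within each comparison in Sleuth, and deposited pooled means on the natural log (ln) scale after adding 0.5. The authors' variances are deposited as scores on that scale squared. The 6 tables hold only transcripts within the authors' q-value limit, and their p-values, q-values, effects and standard errors were not used. There are 0 columns of values per sample, so depth is unknown here and replicates could not be compared.

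Residual variance was the sum of the biological and technical variance, and the share between groups followed from it and the total variance. A difference between stages 2 apart was 2 times the difference of the pooled means of neighboring tables, with the scale set where the shared stage had the same mean in both. This held within 0.02 for all 1230, 1806 and 2720 transcripts above 100 estimated counts, with offsets of 0.0972, 0.00913 and -0.175 on the log2 scale. Where the place of the shared stage is given, it was read from the difference and the variances, with no test. Variances were moderated by limma 3.58.1 in R 4.3.3 from 4 residual degrees of freedom, over listed transcripts only, so p-values apply to that selected set. Lengths and positions came from GENCODE 44, joined without the version, which matched 93.9% to 95.1% of a table. Named were all members and, from the other pathway genes, the 2 highest and 2 lowest called per comparison; further ones were named after their values were seen. Some of the genes in that list are counted but not reported here by name. Members and lists were chosen with earlier results of these data known.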

Additional observations from a re-analysis of the deposited data

How the results depend on the processing

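The differences of the 7 member transcripts kept their direction and their side of the limits with no correction of the scale, centering on the median, the authors' final variances with a normal distribution, a minimum pooled mean of 10 estimated counts and no limit on the size. The difference of *JAG1* for CM versus CMes was 0.02 in place of 0.37 on the log2 scale without the scale correction. The numbers of transcripts called stayed within 1.5 times. The split of the calls moved most without the scale correction, under which 57.4% in place of 46.7% of those for CMes versus iPSC were higher, and the median difference for CM versus CMes went from -0.09 to -0.44. Summed over its 3 listed transcripts, *DLL3* had 283 in place of 164 estimated counts over CMes and CP. With the authors' final variance, the share of variation between groups of the *NOTCH2* transcript ENST00000602566.6 was 71.5% in place of 86.9%, since that variance is raised to the level of transcripts of similar abundance. No paired analysis was possible because the tables hold no value per library, and for the same reason no replicate could be left out. A transcript missing from either neighboring table has no value, so nothing is known here of its change.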
